A study of Mus musculus with 18 samples.

Results

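The comparison set the 6 libraries of mouse ileal epithelium with the highest MHC class II transcript levels against the 6 with the lowest, out of 18 libraries in all. Each library was scored by the mean of log2(CPM + 1) of Cd74, H2-Aa, H2-Ab1 and H2-Eb1, where CPM is a gene's count for each mega-count (M) of the library's total, and both sides were chosen by that measured score alone. The libraries held poly(A) RNA of epithelial cells sorted by flow cytometry from the ileum, the distal small intestine, of females. The study had 3 groups of 6 libraries by mating status: virgin, pregnant and pseudopregnant, the last being a hormonal state that resembles pregnancy without embryos. All mice received standard chow, RM3 in breeding and RM1 in maintenance and in the experiment. The sources used here give no strain, age, day of pregnancy or sorting markers. The high side consisted of 4 pregnant libraries (replicates 1, 2, 3 and 4) and 2 virgin libraries (replicates 3 and 5), with no pseudopregnant library. The low side consisted of 3 virgin libraries (replicates 2, 4 and 6), 2 pseudopregnant libraries (replicates 2 and 5) and 1 pregnant library (replicate 5). The 6 libraries between them were 4 pseudopregnant, 1 pregnant and 1 virgin, and they did not enter the model unless stated.

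MHC class II molecules carry peptides from the endosome to the cell surface, where CD4+ T cells read them. H2-Aa, H2-Ab1 and H2-Eb1 encode their chains, and Cd74 encodes the invariant chain that keeps the groove closed until peptide is loaded. Professional antigen-presenting cells make them constantly, whereas epithelial cells of the intestine make them in varying amounts, with interferon gamma as the best known inducer: it acts on Ciita, the master activator of class II genes. The same cytokine induces MHC class I processing genes and large families of GTPases that attack intracellular microbes.

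The score ran from 5.08 in pseudopregnant replicate 5 to 9.84 in pregnant replicate 3 and virgin replicate 3. On the high side its lowest, median and highest values were 9.17, 9.49 and 9.84, and on the low side 5.08, 7.63 and 8.18. Pregnant replicate 2 (9.17) was the last library inside the high side, and pseudopregnant replicate 3 (8.97) the first outside it. Virgin replicate 4 (8.18) was the first inside the low side, next to pseudopregnant replicate 4 (8.43) outside it. The low side was not uniform: virgin replicate 6 (5.53) and pseudopregnant replicate 5 (5.08) stood well below the next library, virgin replicate 2 (7.54). Cd74 itself stood at 1443, 1812 and 2141 CPM (lowest, median, highest) on the high side and at 92.7, 514 and 732 CPM on the low side. H2-Aa ranged from 354 to 734 CPM on the high side and from 14.9 to 180 CPM on the low side. These 4 genes chose the sides, so their difference was not tested. Each mating group spanned a wide part of the range, from 7.72 to 9.84 in pregnant, 5.53 to 9.84 in virgin and 5.08 to 8.97 in pseudopregnant libraries.

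**Figure D1:**
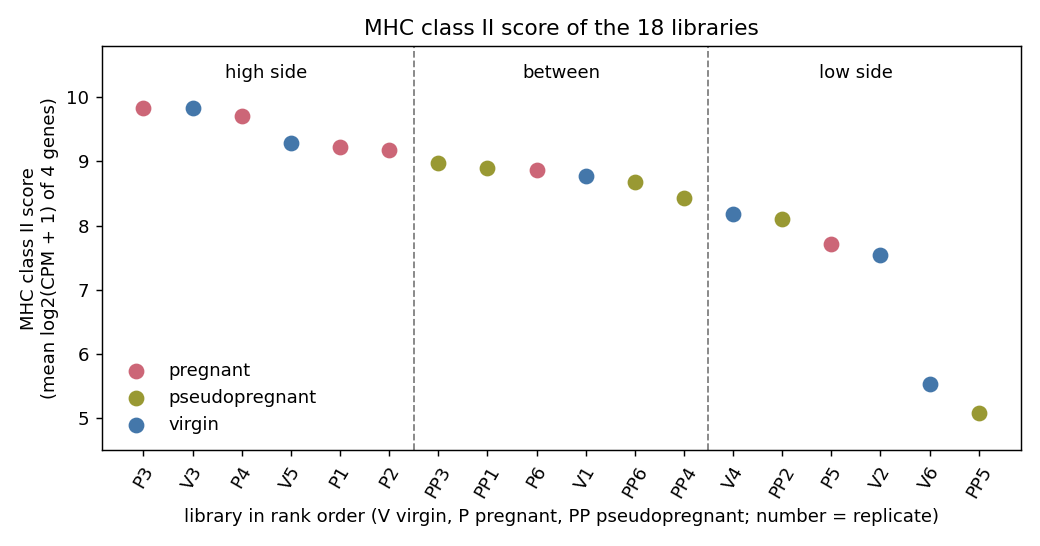
MHC class II score (mean log2(CPM + 1) of Cd74, H2-Aa, H2-Ab1 and H2-Eb1) of the 18 libraries in rank order, 1 point a library, coloured by mating status, with dashed lines at the limits of the sides. The high side holds 4 pregnant and 2 virgin libraries, and the 2 lowest libraries lie at 5.53 and 5.08.

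Libraries held 24.9 to 37.3 M counts. The sides did not differ beyond their spread in total count (30.2 ± 4.30 M on the high and 31.4 ± 1.79 M on the low side, mean ± SD, n = 6 each, exact permutation p = 0.548) or in the mitochondrial share of counts (5.79% ± 1.36 against 6.71% ± 1.31, exact permutation p = 0.258). The epithelial adhesion gene Epcam stood at 2096 to 3234 TMM-scaled CPM on the high side and at 1639 to 2944 on the low side. The pan-leukocyte gene Ptprc was at 0.261 to 0.550 and 0.198 to 0.598 CPM. Nothing in the labels says that the libraries of a group came from separate mice, so the p-values reflect only sample-to-sample spread, part of which may be technical. Because a measured value chose the sides, a p-value below says how closely a gene went with the class II score over these libraries and is not a test of a treatment.

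Of the genes higher where class II was high, 11 belonged to the interferon gamma response list (28 tested). The MHC class I presentation list (25 tested) held 4 of them and the antiviral interferon list (28 tested) 2. The list of class II accessory genes (9 tested) held 1, H2-DMb2. With edgeR's quasi-likelihood test and Benjamini-Hochberg adjustment, 28 genes (0.191% of the 14671 described, the 4 score genes left out) passed an adjusted p of 0.05. Of these, 24 (0.164%) were higher and 4 (0.0273%) lower on the high side. At an unadjusted p under 0.05 there were 1139 higher (7.76%) and 1242 lower (8.47%). The 2 sides did not overlap in 105 genes that were higher (0.716%) and 102 that were lower (0.695%), among them all 28 that passed. The median fold change was 1.73 on the log2 scale for the 24 higher genes and -1.22 for the 4 lower ones, against -0.02 for all genes. The 6 libraries between, which the model did not use, had a mean level between those of the sides for all 28 genes, and for 8788 of the 14671. The class II score placed these 6 libraries between the sides, and the 28 genes were called for going with that score. The levels of these libraries are therefore not independent support. The number of genes called rested on single libraries: leaving out virgin replicate 6 gave 0 (2028 at an unadjusted p under 0.05), virgin replicate 3 gave 1, pregnant replicate 5 gave 5, pregnant replicate 3 gave 12, pregnant replicate 4 and pseudopregnant replicate 5 gave 13 each, virgin replicate 2 gave 18, and virgin replicate 5 gave 446. DESeq2 called 532 genes (303 higher and 229 lower), 27 of the 28 among them, and limma-voom called 26.

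**Figure D2:**
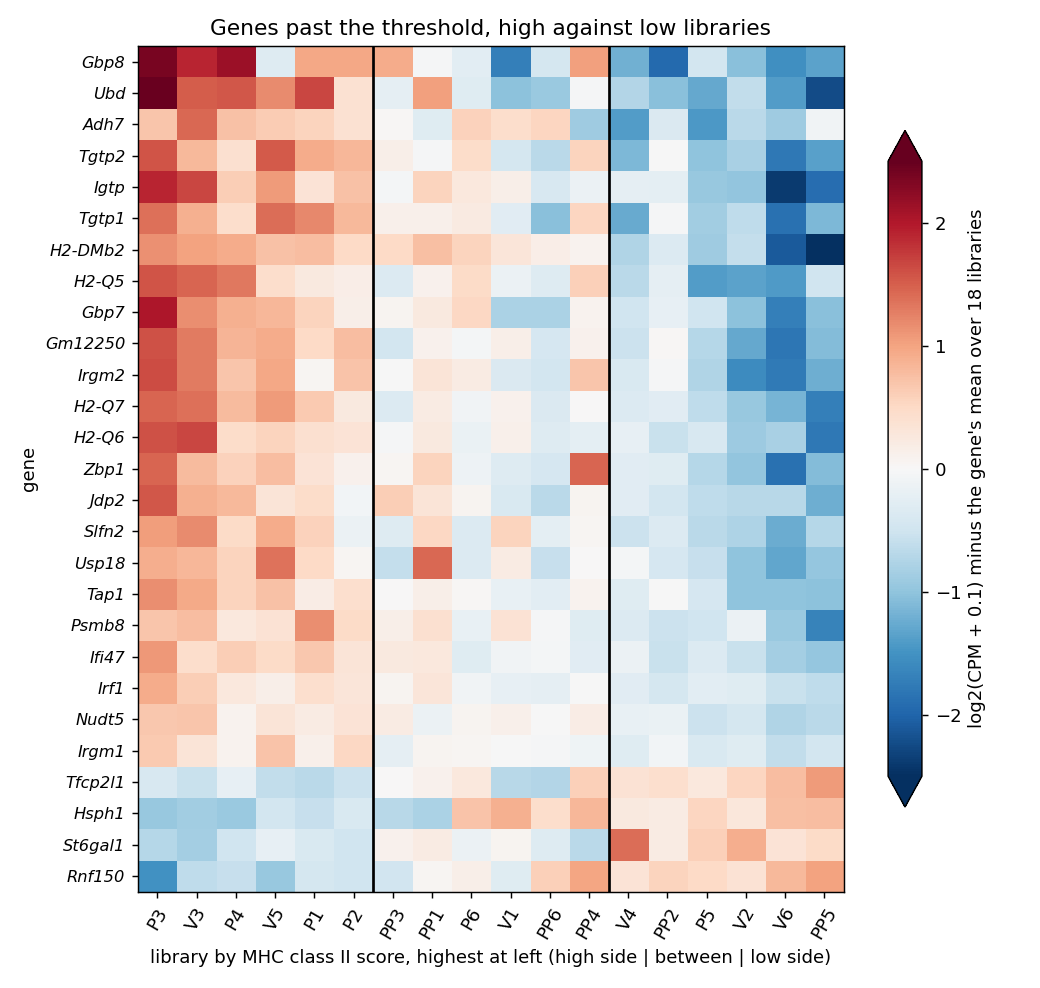
Levels of 27 of the 28 genes past the threshold (rows, ordered by fold change) in the 18 libraries (columns, ordered by MHC class II score), as log2(CPM + 0.1) centred on the gene's own average, red above and blue below it. The first 23 genes are mostly red in the 6 high libraries and mostly blue in the 6 low ones, and the last 4 genes run the other way.

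Of the interferon gamma response list, 28 of 31 genes were measured well enough to be tested. All 28 were positive, at a median log2 fold change of 1.244 (all genes -0.02), 11 passed the threshold and 25 had an unadjusted p under 0.05. The members were led by Ubd, which encodes the ubiquitin-like modifier FAT10. Ubd stood at 17.4, 39.2 and 74.6 CPM (lowest, median, highest of 6) in the high libraries and at 2.75, 5.96 and 8.73 CPM in the low ones. These levels are TMM-scaled, as are the printed levels of single genes from here on, but not the summed marker levels. The highest value was that of pregnant replicate 3 and the lowest that of pseudopregnant replicate 5, and the sides did not overlap (log2 fold change 2.74, SE 0.33, edgeR adjusted p = 0.0116). Gbp8, a guanylate-binding protein that coats pathogen vacuoles, was low in all libraries but stood at 1.68, 6.26 and 11.51 CPM against 0.484, 0.829 and 1.53 CPM (2.90, SE 0.43, adjusted p = 0.0173). Virgin replicate 5 was the high library closest to the low side. The gene overlaps Gbp9 and Gbp4 in the annotation and may share reads with them. Gbp7 stood at 4.48, 7.39 and 16.7 against 1.17, 2.37 and 3.501 CPM (1.86, SE 0.32, adjusted p = 0.0396).

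The immunity-related GTPases, which act on the membranes of vacuoles that hold microbes, were higher in each family member named here. Igtp stood at 28.9, 42.6 and 84.7 CPM on the high side and 4.21, 11.53 and 19.4 CPM on the low side (log2 fold change 2.10, SE 0.38, edgeR adjusted p = 0.0453). Its neighbour Irgm2, which overlaps it in the annotation, stood at 17.01, 29.5 and 50.8 against 4.76, 8.37 and 16.1 CPM (1.81, SE 0.32, adjusted p = 0.0419). Both genes were lowest in virgin replicate 6 and highest in pregnant replicate 3. The near-identical pair Tgtp1 and Tgtp2, between which reads may be shared, stood at medians of 2.65 and 2.76 CPM against 0.564 and 0.645 CPM (2.08, SE 0.30, and 2.12, SE 0.32, adjusted p = 0.0173 each). Gm12250, known as Irgb10, stood at 8.57, 11.2 and 18.4 against 1.64, 3.21 and 6.12 CPM (1.85, SE 0.29, adjusted p = 0.0203). Ifi47 stood at 53.0, 61.8 and 90.2 against 21.5, 28.8 and 38.0 CPM (1.18, SE 0.17, adjusted p = 0.0173). Irgm1, a regulator of the other family members, differed least, at 44.3, 55.9 and 68.5 against 27.1, 32.8 and 39.6 CPM (0.78, SE 0.14, adjusted p = 0.0414).

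Irf1, a transcription factor that interferon induces, was higher too, at 216, 250 and 371 CPM against 125, 151 and 162 CPM (log2 fold change 0.88, SE 0.14, edgeR adjusted p = 0.0267). The interferon receptor and signalling list, which holds the receptor chains and kinases, was positive in 12 of 12 genes with a median of 0.27, and none of them passed with edgeR, DESeq2 or limma-voom (4 at an unadjusted p under 0.05 with edgeR). Stat2 was the member of smallest p (34.6 to 62.7 against 21.6 to 41.2 CPM, 0.61, SE 0.20, adjusted p = 0.177). Ifng, the gene of interferon gamma, had a count of 0 in all 18 libraries, which allows up to 3 counts in each. Gbp2 stood at 3.07, 3.96 and 10.98 against 0.789, 1.91 and 3.16 CPM, with overlapping sides (1.36, SE 0.39, adjusted p = 0.149).

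The promoters of several of these genes share a pair of letter patterns, and they are printed because the genes moved together over the libraries. The first is a gamma-activated site (GAS, a DNA element of promoters that interferon gamma switches on), searched as TTCNNNGAA. The second is the core of an interferon-stimulated response element (ISRE, bound by IRF factors), searched as GAAANNGAAA. Both strands were searched in the RefSeq windows of 250 bases before to 50 bases after the start (GRCm38.p6). Of the 24 higher genes 19 matched an entry, with 22 windows. A GAS was found in 9 of these windows (40.9%), an ISRE in 7 (31.8%) and both in 6 (27.3%). Over the 12807 windows of genes tested the shares were 6.89%, 3.13% and 0.398%. Over all 32851 windows they were 8.3%, 3.44% and 0.454%. Of the 4 lower genes 3 matched, with 6 windows, and neither pattern was in them. The stretches below run 5′ to 3′ on the gene's strand from 120 to 21 bases before the start, with the letters of GAS and ISRE matches in capitals. They are Igtp at chr11:58199436-58199535 (plus strand), Irgm2 at chr11:58214857-58214956 (plus), Tgtp1 at chr11:48992267-48992366 (minus), Tgtp2 at chr11:49064233-49064332 (minus), Gm12250 at chr11:58183723-58183822 (plus), Gbp7 at chr3:142530216-142530315 (plus), Irf1 at chr11:53769894-53769993 (plus) and Psmb8 at chr17:34198075-34198174 (plus).
Igtp: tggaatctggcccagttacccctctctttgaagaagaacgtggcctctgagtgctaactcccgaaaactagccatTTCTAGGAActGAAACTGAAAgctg
Irgm2: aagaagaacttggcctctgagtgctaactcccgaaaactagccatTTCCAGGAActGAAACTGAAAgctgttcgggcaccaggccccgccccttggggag
Tgtp1: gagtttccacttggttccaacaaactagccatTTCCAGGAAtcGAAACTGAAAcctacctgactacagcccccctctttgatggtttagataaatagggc
Tgtp2: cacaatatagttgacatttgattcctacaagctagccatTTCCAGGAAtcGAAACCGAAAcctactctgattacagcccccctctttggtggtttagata
Gm12250: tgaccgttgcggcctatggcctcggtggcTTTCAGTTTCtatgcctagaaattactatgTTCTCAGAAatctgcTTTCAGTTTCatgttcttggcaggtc
Gbp7: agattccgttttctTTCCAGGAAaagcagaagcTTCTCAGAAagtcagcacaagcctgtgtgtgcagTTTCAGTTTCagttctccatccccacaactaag
Irf1: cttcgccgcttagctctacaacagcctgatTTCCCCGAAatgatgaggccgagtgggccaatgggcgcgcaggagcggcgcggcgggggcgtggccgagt
Psmb8: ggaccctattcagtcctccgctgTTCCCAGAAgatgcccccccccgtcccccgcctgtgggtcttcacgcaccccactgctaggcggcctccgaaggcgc

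In Igtp, Irgm2, Tgtp1 and Tgtp2 the GAS came first and the ISRE followed after 2 bases, at 45, 75, 88 and 81 bases before the start counted from the first base of the GAS. The stretches of Igtp and Irgm2 share long runs of bases, as do those of Tgtp1 and Tgtp2. The members of each pair are therefore not separate cases of the pattern. The 2 pairs also share the bases just before the GAS, so they may not be separate cases of it either. The other windows with both patterns were those of Gm12250 and Gbp7. The share of windows with both therefore counts related sequences more than once. In Gm12250 the GAS lay 61 bases before the start, between 2 ISRE matches on the other strand, the nearer of them 6 bases away. Gbp7 held GAS matches at 106 and 87 bases before the start and an ISRE 25 bases further on. Irf1 (90 bases before the start) and Psmb8 (97) held a GAS in these stretches and no ISRE. No GAS shared a base with an ISRE in the stretches printed. A match of letters is a description and not evidence of binding. The other higher genes with a match were H2-DMb2, with a GAS, and Irgm1, with overlapping ISRE matches.

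Genes of MHC class I presentation formed another large group. All 25 tested members were positive, with a median of 0.72 (all genes -0.02). Of them 4 passed the threshold, namely Tap1, Psmb8, H2-Q6 and H2-Q7, and 23 had an unadjusted p under 0.05. Tap1, a subunit of the pump that brings peptides into the endoplasmic reticulum, stood at 88.9, 123 and 175 CPM against 38.4, 48.7 and 78.2 CPM (log2 fold change 1.28, SE 0.21, edgeR adjusted p = 0.0364). Psmb8, a catalytic subunit of the immunoproteasome, stood at 149, 185 and 276 against 38.7, 86.1 and 112 CPM (1.27, SE 0.23, adjusted p = 0.0453). Its partner subunit Psmb9, which overlaps Tap1 on the opposite strand, stood at 79.1, 85.8 and 143 against 22.5, 44.3 and 70.4 CPM, with sides that did not overlap, but it did not pass (1.08, SE 0.23, adjusted p = 0.0708).

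Of the class I chains of the Q region, H2-Q5, H2-Q6 and H2-Q7 passed. H2-Q7 stood at 11.7, 18.8 and 27.0 CPM against 2.95, 5.63 and 8.03 CPM (log2 fold change 1.78, SE 0.26, edgeR adjusted p = 0.0173). H2-Q6 stood at 7.97, 8.96 and 19.97 against 1.74, 3.86 and 5.42 CPM (1.68, SE 0.31, adjusted p = 0.049), and H2-Q5 at 2.19, 3.84 and 5.99 against 0.672, 0.952 and 1.65 CPM (1.92, SE 0.33, adjusted p = 0.0364). H2-Q5 is not on the class I list. The other Q genes tested on the list did not pass, with H2-Q1 at 0.84, H2-Q2 at 0.77, H2-Q4 at 0.90 and H2-Q10 at 0.80 on the log2 scale. These chains are close paralogs, and how the counting shared reads among them is not given in the sources used here. Nlrc5, the activator of class I genes, stood at 2.16, 4.502 and 7.31 against 0.351, 0.846 and 2.31 CPM and did not pass (2.09, SE 0.42, adjusted p = 0.0629). B2m, the light chain shared by class I molecules, was abundant in all libraries, at 1197, 1753 and 2227 against 705, 1144 and 1517 CPM, with overlapping sides (0.53, SE 0.22, adjusted p = 0.25).

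Of the 9 tested accessory genes of class II, 8 were positive (median 0.42), 1 passed and 5 had an unadjusted p under 0.05. H2-DMb2, a chain of the exchange factor that swaps the invariant chain fragment for peptide, stood at 4.73, 6.08 and 7.49 CPM against 0.394, 1.84 and 2.59 CPM (log2 fold change 1.96, SE 0.34, edgeR adjusted p = 0.0414). The more abundant paralog H2-DMb1 stood at 60.1, 87.7 and 114 against 3.71, 26.3 and 34.1 CPM (2.03, SE 0.43, adjusted p = 0.0708). H2-DMa stood at 70.8, 77.0 and 94.5 against 8.83, 30.9 and 43.4 CPM (1.54, SE 0.30, adjusted p = 0.0629). Neither passed, although their sides did not overlap, and both were lowest in pseudopregnant replicate 5 and next lowest in virgin replicate 6. How the counting shared reads between H2-DMb2 and its paralog H2-DMb1 is not given in the sources used here. Ciita stood at 12.47, 24.8 and 39.5 CPM on the high side and 1.31, 4.25 and 19.6 CPM on the low side. Pseudopregnant replicate 2 gave the 19.6 CPM and reached into the high side, and the next low library was at 5.45 CPM (2.03, SE 0.51, adjusted p = 0.115). Rfx5, Rfxank and Rfxap, subunits of the RFX complex that binds class II promoters, were at 0.11, 0.25 and -0.19. These 3 genes were picked after their values were seen. Of 11 endosomal proteases 9 were positive (median 0.16), and none passed with edgeR or limma-voom (4 at an unadjusted p under 0.05 with edgeR), while DESeq2 called 1. Cathepsin B (Ctsb) stood at 349, 382 and 417 against 293, 338 and 349 CPM (0.24, SE 0.10, adjusted p = 0.258).

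The antiviral genes that type I and type III interferons induce were positive in 28 of 28 (median 0.79), with 2 past the threshold and 24 at an unadjusted p under 0.05. Zbp1, a sensor of left-handed nucleic acid, stood at 20.2, 29.9 and 51.3 CPM against 5.05, 10.35 and 15.3 CPM (log2 fold change 1.53, SE 0.27, edgeR adjusted p = 0.0434). Usp18, which dampens interferon receptor signalling, stood at 5.75, 9.10 and 14.5 against 2.19, 3.23 and 5.38 CPM (1.45, SE 0.25, adjusted p = 0.0396). Ifit1, which binds viral RNA, stood at 55.3, 77.5 and 88.2 against 14.02, 31.6 and 55.8 CPM (1.19, SE 0.25, adjusted p = 0.0708), and Oas1a at 41.8, 44.7 and 61.4 against 19.3, 27.4 and 40.0 CPM (0.76, SE 0.17, adjusted p = 0.0764). Some libraries between the sides had levels as high as the high side: pseudopregnant replicate 1 had Ifit1 at 118 CPM and Usp18 at 15.1 CPM, and pseudopregnant replicate 4 had Zbp1 at 51.0 CPM.

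**Figure D3:**
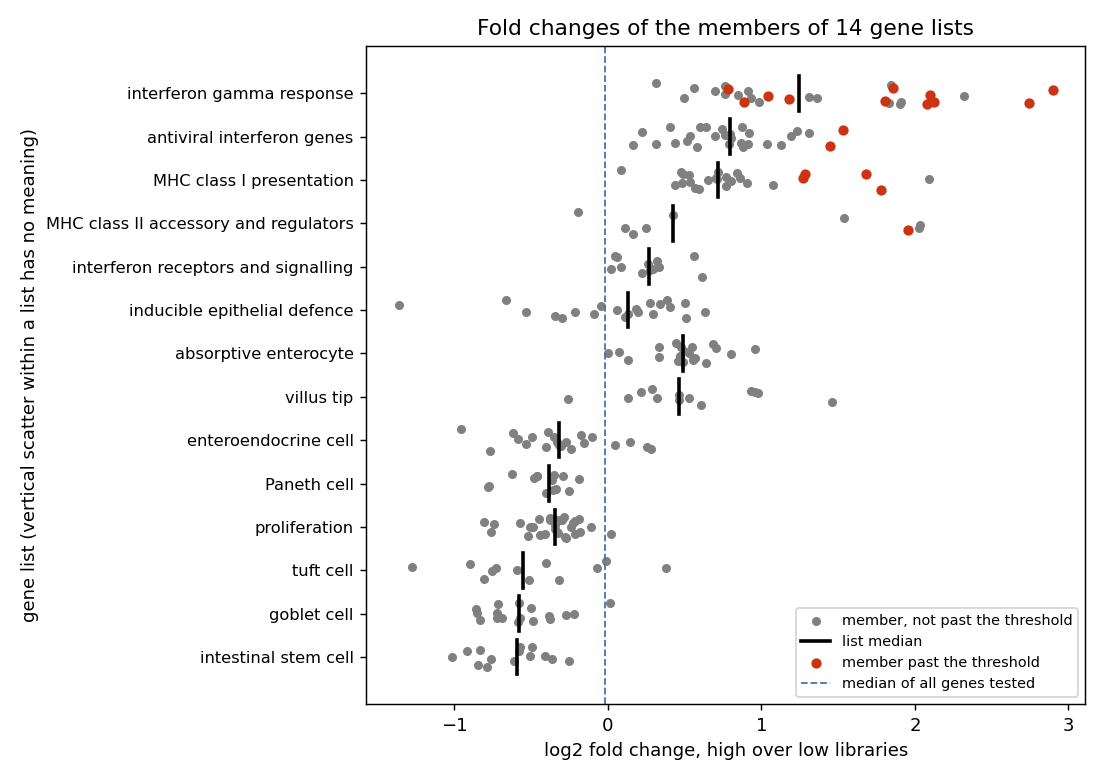
Log2 fold change, high over low libraries, of each tested member of 14 gene lists (points, red where the gene passed an adjusted p of 0.05), with the list median as a black bar and the median of all 14671 genes as a dashed line at -0.02. Interferon and class I lists lie to the right, at medians of 1.244, 0.79 and 0.72, and goblet and stem cell lists to the left, at -0.58 and -0.59.

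Other higher genes belonged to none of these lists. Slfn2, a Schlafen family protein known for keeping T cells quiescent, stood at 7.66, 14.4 and 19.4 CPM against 3.51, 5.21 and 6.60 CPM (log2 fold change 1.45, SE 0.22, edgeR adjusted p = 0.0173). Nudt5, an enzyme that splits ADP-ribose, stood at 57.1, 67.8 and 87.3 against 32.2, 38.4 and 48.2 CPM (0.85, SE 0.15, adjusted p = 0.0364). Jdp2, a repressor of AP-1 target genes, stood at 1.94, 3.24 and 6.20 against 0.815, 1.25 and 1.64 CPM (1.47, SE 0.27, adjusted p = 0.0453). Adh7, an alcohol dehydrogenase that also oxidises retinol, passed at very low levels, 0.353 to 0.832 against 0.0282 to 0.225 CPM (2.13, SE 0.39, adjusted p = 0.0464). Of 24 higher genes, 9 lay on chromosome 11, which holds 8.1% of the genes tested, and 7 on chromosome 17 (5.01%). Those on chromosome 17 lay between 34143307 and 37196095 (GRCm38), the stretch that also holds H2-Aa, H2-Ab1 and H2-Eb1.

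The 4 lower genes came from unrelated families. Hsph1, a chaperone of the heat shock protein 110 family, stood at 21.3, 25.1 and 31.8 CPM on the high side and 47.8, 54.9 and 70.3 CPM on the low side (log2 fold change -1.15, SE 0.15, edgeR adjusted p = 0.0116). The 6 libraries between ran from 23.6 to 76.0 CPM and so covered both sides. The inducible chaperones Hspa1a and Hspa1b, near-identical copies that may share reads, were at -1.02 (SE 0.25) and -0.93 (SE 0.23) and did not pass (adjusted p = 0.114 and 0.115). Tfcp2l1, a transcription factor of the CP2 family, stood at 11.7, 12.8 and 16.3 against 22.5, 26.1 and 39.1 CPM (-1.08, SE 0.14, adjusted p = 0.0116). St6gal1, which adds sialic acid to glycans, stood at 0.832, 1.10 and 1.36 against 1.85, 2.35 and 4.32 CPM (-1.28, SE 0.23, adjusted p = 0.0453). Rnf150, of the RING finger family, stood at 0.143 to 0.413 against 0.774 to 1.29 CPM (-1.58, SE 0.25, adjusted p = 0.0222). Of the 18 dissociation and immediate early genes, 1 passed (Hsph1), 5 were lower at an unadjusted p under 0.05 and the median was -0.12.

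**Figure D4:**
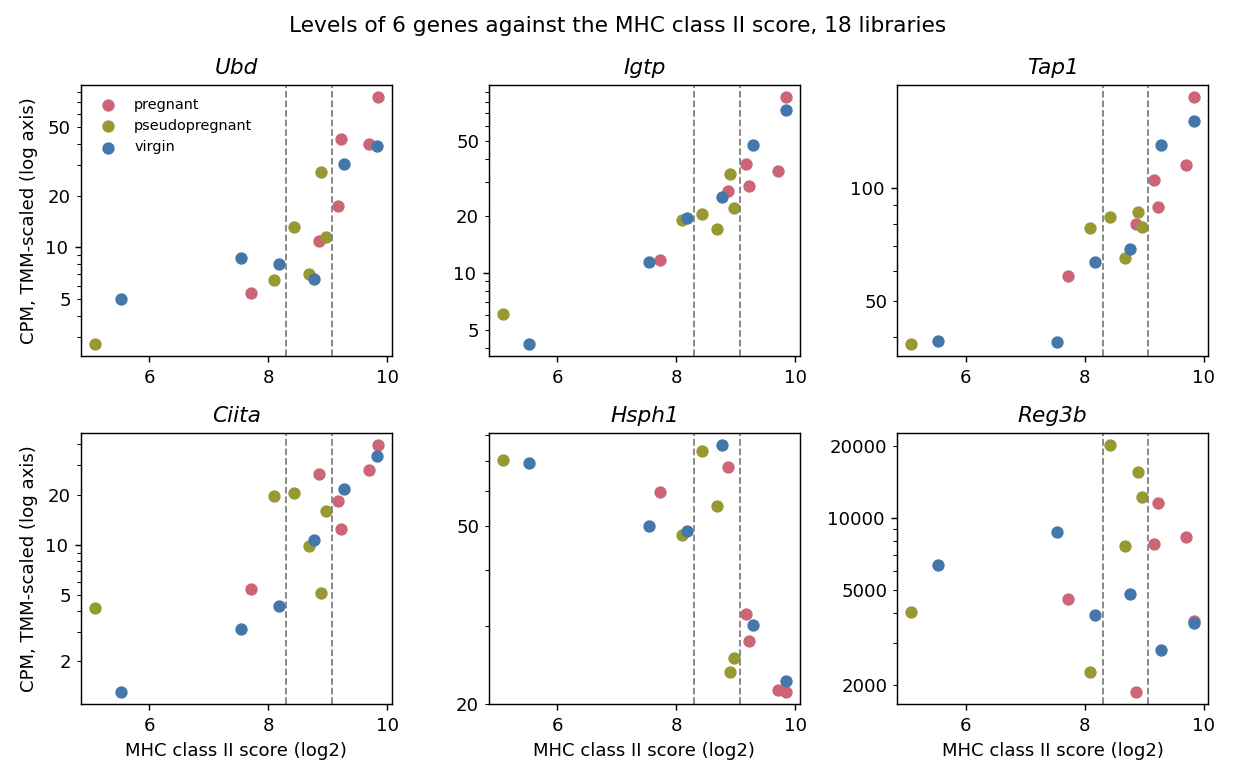
Levels (TMM-scaled CPM, log axis) of 6 genes against the MHC class II score in all 18 libraries, coloured by mating status, with dashed lines at the limits of the sides. Ubd, Igtp, Tap1 and Ciita are higher toward the right, Hsph1 is at 31.8 CPM or less in the 6 high libraries, and Reg3b varies widely at every score.

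Genes of inducible epithelial defence, which respond to bacteria and to interleukins of the gut wall, did not move as a group with the score. Of 21 tested members 13 were positive (median 0.13) and none passed with edgeR, DESeq2 or limma-voom, nor had any an unadjusted p under 0.05 with edgeR. The antibacterial lectin Reg3b stood at 2809, 5731 and 11520 CPM against 2270, 4316 and 8754 CPM (log2 fold change 0.34, SE 0.39, edgeR adjusted p = 0.709) and Reg3g at 1243, 2204 and 2661 against 968, 1659 and 3075 CPM (0.18, SE 0.28, adjusted p = 0.785). Saa1, an acute phase protein, was at 0.51 (SE 0.65), the nitric oxide synthase Nos2 at -0.22 (SE 0.37), the peroxide generator Duox2 at -0.09 (SE 0.27), the fucosyltransferase Fut2 at -0.30 (SE 0.40) and Pigr, the carrier of IgA, at 0.11 (SE 0.19). Their adjusted p ran from 0.741 to 0.894. The standard errors of Saa1, Fut2 and Reg3b leave room for sizeable differences in either direction.

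With edgeR none of the markers of epithelial cell types described next passed the threshold. Goblet cell genes were negative in 16 of 17 (median -0.58), with 10 at an unadjusted p under 0.05 and 6 called by DESeq2 (0 by limma-voom). Atoh1, the factor that starts the secretory lineage, stood at 7.31, 11.4 and 16.9 CPM against 17.3, 18.2 and 24.9 CPM (log2 fold change -0.73, SE 0.18, edgeR adjusted p = 0.114) and Clca1, a secreted mucus protein, at 348, 386 and 639 against 529, 730 and 1130 CPM (-0.83, SE 0.20, adjusted p = 0.107). The summed goblet level was 6828 ± 1007 against 9850 ± 3309 CPM (mean ± SD, n = 6 each, exact permutation p = 0.0108, and 0.200 adjusted over 19 such values). In bulk libraries fewer cells of a type and less RNA per cell cannot be told apart. Intestinal stem cell genes were negative in 14 of 14 (median -0.59, 8 at an unadjusted p under 0.05, 0 past the threshold with edgeR or limma-voom and 2 with DESeq2). Lgr5, the stem cell receptor, stood at 2.08, 4.41 and 5.82 against 5.02, 7.85 and 13.7 CPM (-1.01, SE 0.28, adjusted p = 0.142). Proliferation genes were negative in 33 of 34 (median -0.34), with Mki67 at 32.9 to 70.9 against 50.3 to 152 CPM (-0.76, SE 0.28, adjusted p = 0.207). Paneth cell genes were negative in 14 of 14 (median -0.39, but -0.83 without pregnant replicate 1 and -0.16 without virgin replicate 2, and 0.34, so of the opposite sign, with the villus-minus-crypt score defined next as a covariate). Tuft cell genes had a median of -0.55 (-0.29 without virgin replicate 6).

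Absorptive enterocyte genes lay on the other side, positive in 20 of 21 (median 0.49), with 10 at an unadjusted p under 0.05, 0 past the threshold with edgeR or limma-voom and 1 with DESeq2. The glucose importer Slc5a1 stood at 1167, 1642 and 1859 CPM against 900, 1106 and 1175 CPM (log2 fold change 0.55, SE 0.16, edgeR adjusted p = 0.149) and the fatty acid binder Fabp2 at 7040 to 17610 against 3704 to 11870 CPM (0.80, SE 0.33, adjusted p = 0.25). Genes of the villus tip were positive in 12 of 13 (median 0.46), among them Ada at 90.1, 444 and 1078 against 78.5, 160 and 353 CPM (1.46, SE 0.47, adjusted p = 0.174). The villus-minus-crypt score, the mean log2 CPM of the absorptive list minus that of the proliferation list, was 6.04 ± 0.87 on the high and 5.18 ± 0.21 on the low side (n = 6 each, exact permutation p = 0.0584, 0.200 adjusted over 19 values). Pregnant replicates 3 and 4 and virgin replicate 3 held the highest values of the high side, 7.04, 6.47 and 6.83, and virgin replicate 5 the lowest, 4.84, which is under every library of the low side.

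Most markers of B cells, T cells and myeloid cells were at low levels on both sides. All 10 B cell and plasma cell markers were under 1 CPM in every library, as were 15 of 16 T cell and intraepithelial lymphocyte markers, 6 of 8 leukocyte markers and 11 of 18 macrophage and dendritic cell markers. The summed B cell level ran from 0.618 to 1.12 CPM on the high and from 0.676 to 1.35 CPM on the low side. Summed leukocyte markers ran from 1.73 to 4.53 against 1.65 to 4.42 CPM, T cell markers from 0.671 to 3.46 against 0.768 to 4.12 CPM, and macrophage and dendritic cell markers from 19.7 to 44.2 against 33.5 to 39.4 CPM. Lyz2, at a median of 17.3 against 23.5 CPM, made up most of this last sum, which so says little of its other members. Among the defining genes, Cd79a had 9 counts over all 18 libraries, Cd3e 32 and Itgax 39. The exact permutation p for these 4 sums ran from 0.173 to 0.874. Few of the markers could be tested with edgeR, most of those were positive, and none passed. The 1 tested B cell marker, Jchain, was at 0.93 on the log2 scale (edgeR unadjusted p under 0.05). The 2 tested T cell markers, Gzma and Ccl5, were at 0.74 and 0.87. Positive were 3 of 4 tested leukocyte markers (median 0.19) and 6 of 8 macrophage and dendritic cell markers (median 0.20). Of 8 innate lymphoid markers 3 were tested, among them Id2, which epithelial cells also make, and their list summed to 83.1 to 110.6 CPM on the high side and 92.6 to 114 CPM on the low side (exact permutation p = 0.924). The part of such cells in the class II levels was not tested.

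The make-up of the sides was uneven, so the model was repeated with terms for it. With mating status as a covariate 0 genes passed (edgeR, 1485 at an unadjusted p under 0.05), while the fold changes stayed close: the median of the 24 higher genes was 1.72 and that of the 4 lower ones -1.26, and the smallest adjusted p of the 28 was 0.0692. A term for the villus-minus-crypt score also left 0 genes past the threshold (848 at an unadjusted p under 0.05), at a median of 1.27 for the higher genes and -1.12 for the lower ones. All 28 genes had the same direction as with no covariate in both. Sides that do not overlap largely fix this with mating status. With the villus-minus-crypt score they need not, but the 28 were chosen on the same libraries. With all 18 libraries in the model and the score as a continuous term, 92 genes passed beside mating status (21 of the 28 among them) and 12 beside the villus-minus-crypt score (9 of the 28). The medians of the interferon gamma response, class I and antiviral lists were 1.22, 0.55 and 0.81 with mating status and 0.84, 0.53 and 0.64 with the villus-minus-crypt score. Those of the Paneth, tuft and stem cell lists were -0.82, -0.54 and -0.53 with mating status and 0.34, -0.14 and -0.28 with the villus-minus-crypt score. Those of the class II accessory and the interferon receptor and signalling lists were 0.24 and 0.03 with the latter. Those of the absorptive, villus tip and proliferation lists were 0.063, 0.035 and 0.008 with the latter, a score built from the absorptive and proliferation lists.

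**Figure D5:**
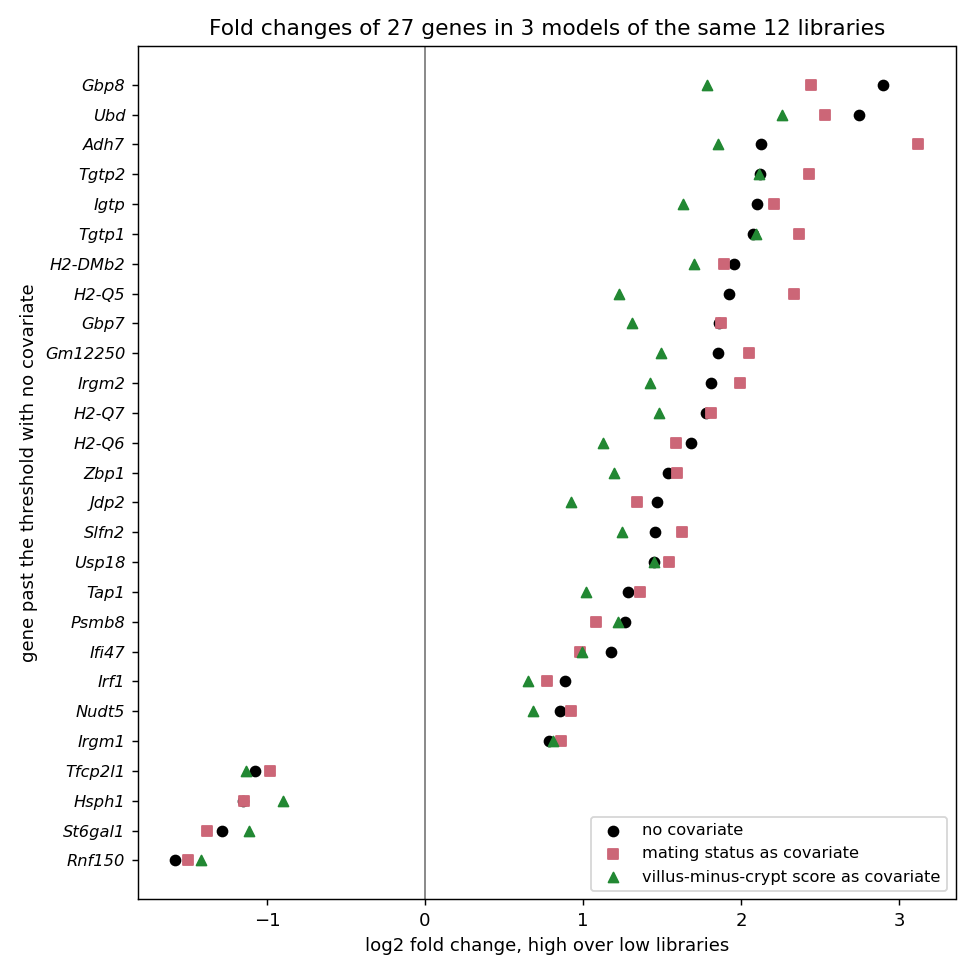
Log2 fold change, high over low libraries, of 27 of the 28 genes past the threshold in 3 models of the same 12 libraries: no covariate (circles), mating status (squares) and villus-minus-crypt score (triangles) as a covariate. The direction is the same in the 3 models for each gene, and the median of all 24 higher genes is 1.73, 1.72 and 1.27.

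Within the pregnant libraries the low side had 1 library and within the virgin libraries 3, and no pseudopregnant library was on the high side, so differences of the pseudopregnant group cannot be told apart from the score there. With pregnant and virgin libraries only, 25 genes passed, 16 higher and 9 lower, and 15 of them were among the 28. Without the 2 libraries of lowest score, virgin replicate 6 and pseudopregnant replicate 5, 6 genes passed, 4 of them among the 28: Ubd (log2 fold change 2.51, edgeR adjusted p = 0.0188), H2-DMb2 (1.54, adjusted p = 0.00962), Hsph1 (-0.996, adjusted p = 0.0297) and Tfcp2l1 (-0.89, adjusted p = 0.0224). The median of the 24 higher genes was then 1.504, and of the interferon gamma response list 1 gene passed and 20 of 28 had an unadjusted p under 0.05.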

How the data were processed

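The authors deposited a table of raw counts for each library, by Ensembl gene ID. Per the submitters' processing notes, the tools named are FastQC 0.11.5, HISAT2 2.0.4, featureCounts, Subread 2.0.0 and DESeq2 1.24.0, and the build is GRCm38. Per the labels' protocols, libraries were directional and poly(A)-enriched. The strand setting of the counting is unstated in these sources, so reads of overlapping or antisense genes may be shared. Each table held 47729 genes, of which 47310 had a symbol in GENCODE M21. The 419 without one took 0.029% or less of any library. Totals ran from 24.9 to 37.3 M (median 31.5), and limits from counts cover counting error only.

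The class II score used CPM of the column total with a pseudocount of 1. Printed levels of single genes are TMM-scaled CPM. The summed marker levels, the limit of 1 CPM for cell markers and the villus-minus-crypt score use CPM of the column total. filterByExpr with the 3 mating groups kept 14675 genes, and edgeR 4.0.16 (R 4.3.3, legacy = FALSE) compared the 6 high with the 6 low libraries, two-sided, with Benjamini-Hochberg adjustment over these genes. The 4 score genes are left out of all counts of genes, which leaves 14671. The sides, lists and named genes were chosen with earlier results of these data known. Summed marker levels were compared by exact permutation over 924 assignments, two-sided (smallest possible p 0.0022), adjusted over 19 values. No set test was run. The same steps were tested on simulated counts.

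Named are, of the genes past the threshold, up to 12 highest and 12 lowest by fold change. They needed a mean CPM of at least 2 and no predicted symbol. At least 5 of the 6 libraries of a side had to lie beyond the other side's median. From the 25 lists, up to 4 members of smallest p were added for each list that had at least 3 tested members. A set fixed by name completes the rule. Irgm1, Tgtp2, Gm12250, Nudt5, Adh7, Rnf150 and St6gal1 fall outside this and were named after their values were seen. The alternatives were other scalings (DESeq2's size factors, upper quartile), low-count filters, DESeq2 1.42.0, limma-voom (limma 3.58.1), covariates, a replicate block, all 18 libraries, a threshold of 0.01 and each library left out in turn. The sets without the 2 lowest libraries and of pregnant and virgin libraries only, and the 2 models of the score with a covariate, were added after the data were seen. A gene past the threshold is counted but not reported here by name.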

Additional observations from a re-analysis of the deposited data

Results flagged for a closer look

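Within the 6 libraries of a side, or the 6 between, some single values stood apart by Dixon's criterion (a gap over 0.625 of the range). They were found in 28 of 378 sets (7.41%). For independent, normally spread values chance gives about 1 in 20. Most values here were CPM without a log, of genes that vary together, and each flagged value was the highest of its set. The share is therefore not evidence of an excess. Pseudopregnant replicate 1 was the highest of the libraries between for Ubd (27.4 CPM), Usp18 (15.1), Ifit1 (118), Oas1a (82.0) and Cxcl16 (33.9). Pseudopregnant replicate 4 was the highest of them for Fut2 (61.3 CPM, the next at 1.85), Duox2 (657), Saa1 (243), Socs3 (136.5) and Zbp1 (51.0). Pregnant replicate 6 was the highest of them for Atoh1 (16.2).

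On the low side pseudopregnant replicate 2 was the highest for Ciita (19.6 CPM, the next at 5.45), Cd53 (0.854) and the summed leukocyte markers (4.42). Virgin replicate 4 was the highest low library for Atoh1 (24.9), Isl1 (2.26), Treh (225.7), Creb3l3 (342.6), the summed T cell markers (4.12) and the summed goblet markers (16180). On the high side virgin replicate 3 was the highest for Oas1a (61.4), Reg3a (284) and Adh7 (0.832). Pregnant replicate 3 was the highest for Clca1 (639), Id2 (62.1) and Gbp2 (10.98), pregnant replicate 1 for Psmb9 (143) and virgin replicate 5 for Nr4a1 (16.98).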

How the results depend on the processing

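Since their sides do not overlap, direction says little of stability: all 28 genes kept theirs under every alternative in which they were tested (26 of them under the filter of 1 CPM in 6 libraries). The count of 28 was 29 with DESeq2's size factors, 22 with the upper quartile, 33 with no low-count filter, 22 with the CPM filter and 26 with limma-voom. It was 532 with DESeq2, 85 with all 18 libraries in 3 levels and 326 with the score as a continuous term in all 18. It was 0 with a term for mating status or for the villus-minus-crypt score, and 0 at an adjusted p of 0.01. Without the 2 lowest libraries it was 6, and the continuous score gave 92 beside mating status and 12 beside the villus-minus-crypt score. When 1 library was left out it ranged from 0 to 446. With the replicate number as a block, which leaves few degrees of freedom, it was 0 (edgeR, 542 at an unadjusted p under 0.05), and the median of the 24 higher genes was 1.27 in place of 1.73. Of the libraries compared, those numbered 1 and 3 were on the high side only and the one numbered 6 on the low side. The block model therefore compares the sides within the numbers 2, 4 and 5 only. Of the 18 same-numbered pairs of libraries (correlations of -0.48 to 0.66) 15 correlated positively and 10 over 0.1. Smaller shares of the differently numbered pairs (correlations of -0.71 to 0.70) were positive or over 0.1. For 5 of 18 libraries, the best correlation among those of the other mating groups was with one of their own number. Pregnant replicate 3 and virgin replicate 3, which held the highest scores (9.84 each), correlated at 0.66. The main model has no term for the numbers, and the labels do not say what they stand for. Whether same-numbered libraries share a batch was not tested. Counting error weighs most on genes near or under 1 CPM on either side, such as Adh7, Rnf150, Gbp8, Tgtp1, Tgtp2 and St6gal1.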

Other observations

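Some gene lists outside the comparisons above were also read on the high and low libraries. Nuclear genes of oxidative phosphorylation were positive in 38 of 39 (median log2 fold change 0.19), with 0 past the threshold in edgeR and limma-voom and 1 in DESeq2 (1 at an unadjusted p under 0.05 with edgeR). Their median was -0.02 with mating status in the model. Sdhb, a subunit of respiratory complex II, stood at 267, 325 and 468 CPM against 171, 261 and 365 CPM (lowest, median, highest of 6, log2 fold change 0.42, SE 0.19, edgeR adjusted p = 0.281). Retinoid handling genes were split, with 5 of 9 positive (median 0.29, and -0.17 with the villus-minus-crypt score in the model). Rbp2, the retinol carrier of enterocytes, stood at 565, 921 and 1434 against 384, 537 and 907 CPM (0.78, SE 0.25, edgeR adjusted p = 0.175). Enteroendocrine genes were negative in 17 of 21 (median -0.32, but -0.02 without virgin replicate 4). Gcg, the proglucagon gene, stood at 26.1, 27.6 and 36.9 against 33.0, 52.3 and 68.8 CPM (-0.77, SE 0.19, edgeR adjusted p = 0.109). None of the members named in this paragraph passed the threshold with edgeR.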
